A study of Canis lupus familiaris and Dasypus novemcinctus and Ornithorhynchus anatinus with 3 samples.

Results

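Galectins, the tryptophan-degrading enzymes IDO1 and IDO2, the ligands of the T cell receptor PD-1 and the enzymes that make adenosine outside the cell are genes of fetal-maternal immune tolerance. These 9 genes (LGALS1, LGALS3, LGALS9, IDO1, IDO2, CD274, PDCD1LG2, NT5E and ENTPD1) were chosen by their upper-case symbol in the gene tables of 3 species, from 19290 dog, 12335 armadillo and 18481 platypus genes. Messenger RNA of pregnant endometrium, the lining of the uterus, had been sequenced from 1 library each of dog (Canis lupus familiaris) and armadillo (Dasypus novemcinctus), which are placental mammals, and platypus (Ornithorhynchus anatinus), which lays eggs. No treatment or genotype is named in the labels, and the stage of pregnancy, the age and the number of animals behind each library are not given there. By symbol, 7 of the 9 genes were listed in dog, 8 in armadillo and 7 in platypus. LGALS9 was listed under its symbol in none of the 3 tables and IDO1 not in platypus, and neither can be taken as 0 there. LGALS3 appeared in dog only under LEG3_CANFA, the UniProt entry name of galectin-3, so its dog values lie outside the symbol rule and are marked as such.

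The tolerance routes act at different points. Galectins are sugar-binding proteins that bind glycans on immune cells, and galectin-1 can drive activated T cells into death. IDO1 and its relative IDO2 open the ring of tryptophan, which starves T cells of that amino acid and makes kynurenines, ligands of the aryl hydrocarbon receptor AHR. CD274 (PD-L1) and PDCD1LG2 (PD-L2) bind PD-1 and restrain T cells, while ENTPD1 (CD39) cuts extracellular ATP to AMP and NT5E (CD73) turns AMP into adenosine, which dampens immune cells through its receptors.

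Reads assigned to genes numbered 13625465 for dog, 13218476 for armadillo and 2243556 for platypus. Levels are read counts scaled to a total of 1000000 reads (CPM), on which 1 read was worth 0.0734 CPM for dog, 0.0757 for armadillo and 0.446 for platypus. Since every species is a single library, differences have no replicate check and no p-value, and the 95% intervals cover counting error only. CPM takes no account of gene length, and unequal gene models therefore enter each fold between species. In bulk tissue, fewer cells of a type and less RNA per cell cannot be told apart. Genes other than the 9 count as listed where the symbol was held once. Rows under UniProt entry names, 1428 of them in dog, were not searched for these genes, so not listed does not mean absent. Of the endometrium markers EMX2, a homeobox gene of the reproductive tract, was listed in all 3 libraries (340 dog, 397 armadillo and 140 platypus reads). The progesterone receptor gene PGR was listed only in platypus, at 291 CPM. FOXA2, a factor of uterine glands, had 9 dog, 17 armadillo and 129 platypus reads. Of 3 matched endometrium markers 1, the stromal factor HAND2, was called, 6.79-fold higher in dog. The matched markers differed between dog and armadillo: 3 of 3 epithelial markers were at least 4-fold higher in dog (summed 2541 against 550.4 CPM). Of these KRT7 passed narrowly, at 4.06-fold. In armadillo 2 of 3 stromal, 2 of 2 endothelial, 2 of 2 smooth muscle and 4 of 6 leukocyte markers were at least 4-fold higher. The full lists held 8 epithelial, 8 stromal, 7 endothelial, 7 smooth muscle and 12 leukocyte genes. Of all 8908 matched genes 13.3% were called higher in armadillo and 12.6% higher in dog.

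Most tolerance genes stood far higher in the armadillo library than in dog. Of the 7 genes listed by symbol in both, armadillo exceeded dog at least 4-fold in 5 (LGALS1, IDO1, PDCD1LG2, NT5E and ENTPD1) and dog exceeded armadillo in 0. This is 71.4% of the members, against 13.3% of all 8908 matched genes that were called higher in armadillo and 12.6% called higher in dog. LGALS3, read in dog from its entry name, is not among the 7 and lay towards dog, below the limit. The members were chosen with earlier results of these data known. A call needed a fold of at least 4 on log2(CPM + 1) and 5 CPM in the higher library. The median log2 difference, armadillo over dog, was 3.96 over the 7 members, and the median over all matched genes, here dog over armadillo, was 0.0026. Scaling by median of ratios multiplied every ratio of CPM of dog over armadillo by 0.800, of dog over platypus by 0.664 and of armadillo over platypus by 0.831, and the folds marked as scaled are such ratios. Differences on log2(CPM + 1) moved less for low genes, and for genes listed at 0 not always in the same direction. Upper-quartile scaling multiplied the ratios by 0.844, 0.495 and 0.587 in the same order, and so lowered every fold over platypus, bounds included, by more than 1.5 times without ending a call on a member.

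**Figure D1:**
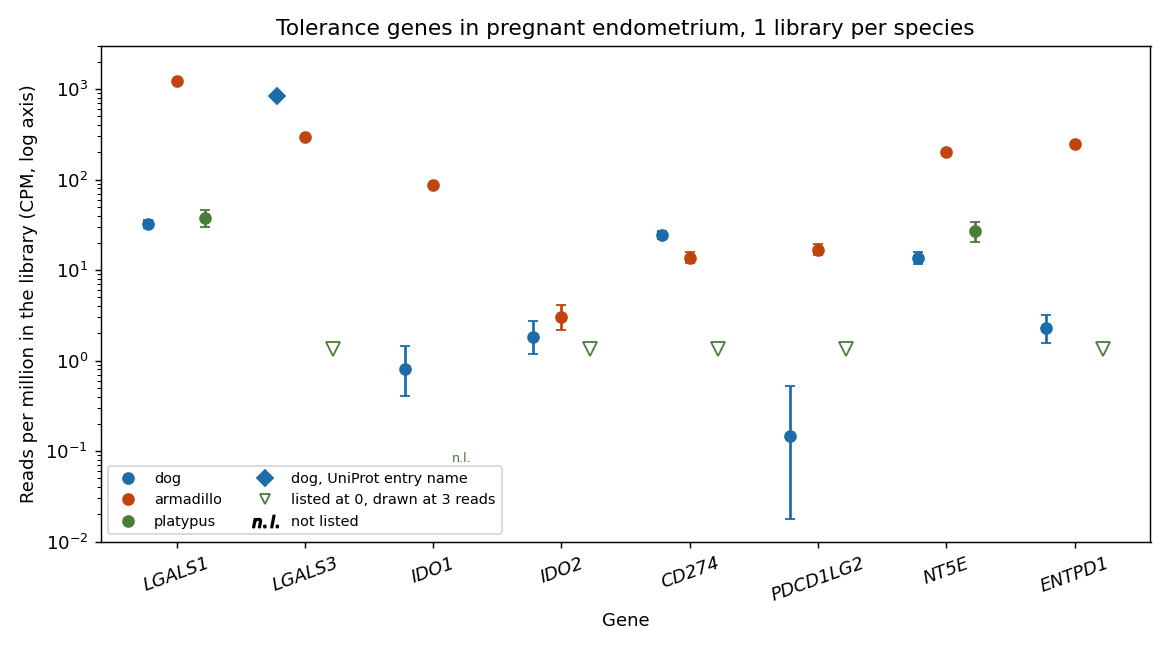
Level of 8 tolerance genes (x axis) in CPM on a log axis (y axis) in the dog, armadillo and platypus libraries, with bars for the 95% counting interval, a diamond for the dog LGALS3 entry name, and open triangles for genes listed at 0, drawn at the level of 3 reads. LGALS9 is left out because no table lists it. Armadillo is the highest library for LGALS1 (1219 CPM), IDO1, PDCD1LG2, NT5E and ENTPD1, and dog for LGALS3 and CD274.

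LGALS1 was higher in armadillo than in dog, and LGALS3, read in dog from its entry name, was higher in dog. LGALS1 (galectin-1; ENSCAFG00000001487 in dog, ENSDNOG00000007659 in armadillo, ENSOANG00000008729 in platypus) had 443 reads or 32.5 CPM (95% interval 29.6 to 35.7) in dog, 16115 reads or 1219 CPM (1200.4 to 1238) in armadillo and 84 reads or 37.4 CPM (29.9 to 46.4) in platypus. Armadillo stood apart, and the dog and platypus intervals overlapped. LGALS1 was 37.5-fold (95% interval 34.1 to 41.3) higher in armadillo than in dog, or 46.9-fold after median-of-ratios scaling. It was 32.6-fold (95% interval 26.3 to 40.8) higher in armadillo than in platypus, or 27.0-fold scaled and 19.1-fold with upper-quartile scaling. The ratio of platypus to dog depended on the scaling. It was 1.15 (95% interval 0.901 to 1.46) on table totals, which includes 1, and 1.73 (95% interval 1.36 to 2.19) by median of ratios or 2.32 (95% interval 1.82 to 2.94) by upper quartile, which do not.

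LGALS3 encodes galectin-3, the galectin with a collagen-like tail, typical of epithelia and macrophages. Its dog entry name carried 11389 reads or 836 CPM (95% interval 821 to 851), armadillo had 3931 reads or 297 CPM (288 to 307), and platypus was listed at 0. Dog was 2.81-fold (95% interval 2.71 to 2.92) above armadillo, or 2.25-fold scaled, which is beyond counting error and below the 4-fold limit. Armadillo was at least 222-fold higher than platypus when platypus was set to a floor of 3 reads (1.34 CPM), the floor used for every count of 0. The exact 95% limit of a count of 0 in platypus is 1.64 CPM.

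Other galectins were thinly covered: of 8 looked for, 4 were listed in dog, 0 in armadillo and 3 in platypus. In dog LGALS2, LGALS4 and LGALS12 had 2, 4 and 2 reads. LGALS8, a galectin with a pair of sugar-binding domains, had 1701 reads or 125 CPM in dog, and LGALS3BP, a secreted glycoprotein that binds galectin-3, 7642 reads or 561 CPM. LGALS8 and LGALS3BP are named after their values were seen, and neither is listed in the other tables. Among the glycoproteins that galectins bind, 0 of 5 matched between dog and armadillo passed the 4-fold limit, with a median log2 difference of 1.76 towards armadillo. This count rested on the scaling: 2 passed with median of ratios, 1 with TMM and 1 with upper quartile. ITGB1, the beta-1 integrin, stood at 303 CPM in dog, against 1153 in armadillo and 212 in platypus, and was 3.81-fold (95% interval 3.68 to 3.94) higher in armadillo than in dog. LAMP1, a lysosomal membrane protein, was 2.66-fold (95% interval 2.56 to 2.76) higher there, and SPN, the leukocyte sialoprotein CD43, had 33 reads in armadillo and was listed at 0 in dog. PTPRC, the leukocyte phosphatase CD45, stood at 3.89 CPM in dog and 15.5 in armadillo. HAVCR2 (TIM-3), described as a receptor of galectin-9, was listed only in armadillo, with 27 reads.

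IDO1 was abundant in armadillo and near the detection limit in dog. It had 11 reads or 0.807 CPM (95% interval 0.403 to 1.44) in dog and 1153 reads or 87.2 CPM (82.3 to 92.4) in armadillo, and the intervals lie far apart. The difference was 108-fold (95% interval 60.2 to 217), or 135-fold scaled. IDO2, the neighbouring paralogue with weaker activity on tryptophan, had 25 reads or 1.83 CPM (95% interval 1.19 to 2.71) in dog, 40 reads or 3.03 CPM (2.16 to 4.12) in armadillo, and was listed at 0 in platypus. Its ratio of armadillo to dog was 1.65 (95% interval 0.976 to 2.84) on table totals, which includes 1, and 2.06 (95% interval 1.22 to 3.55) by median of ratios, which does not. The platypus limits of 1.34 CPM (3 reads) and 1.64 CPM (exact) are close to the dog level of IDO2, so that a difference from dog was not detectable at this depth.

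Of the tryptophan and kynurenine route, armadillo exceeded dog at least 4-fold in 2 of 7 matched genes and dog exceeded armadillo in 0, beside backgrounds of 13.3% and 12.6%. The median log2 difference was 0.77 towards armadillo. The formamidase gene AFMID, whose enzyme acts directly after IDO1, stood at 73.8 CPM in armadillo and 3.38 in dog (46 reads), a 21.9-fold difference (95% interval 16.3 to 30.1). AHR, the receptor for kynurenine, stood at 159 CPM in armadillo and 11.8 in dog, a 13.5-fold difference (95% interval 11.5 to 15.9), and was listed at 0 in platypus. CCBL1 and CCBL2, transaminases that turn kynurenine into kynurenic acid, lay the other way, 3.20-fold and 2.22-fold higher in dog, below the limit. AADAT, a further transaminase of the route, was 1.87-fold (95% interval 1.36 to 2.58) higher in armadillo. That fold is also below the limit, and AADAT is named after its values were seen. Of the later enzymes, KMO had 1 read in dog and 11 in armadillo, and KYNU was listed at 0 in dog and platypus. ACMSD, which diverts the route from NAD synthesis, had 45 reads or 20.1 CPM in platypus and 1 read in dog, and is named after its values were seen. TDO2, the other enzyme that opens tryptophan, was listed at 1.36 CPM (18 reads) in armadillo and at 10.7 CPM (24 reads) in platypus, and is not listed in dog.

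Interferon gamma is the classic inducer of IDO1 and CD274. Its pathway is described by single genes, with no count over the list. IFNGR2, a receptor chain, was 7.86-fold (95% interval 7.15 to 8.66) higher in armadillo. IRF1, a transcription factor induced by interferon, was 3.93-fold (95% interval 3.54 to 4.37) higher in armadillo, just below the limit on the log2(CPM + 1) scale, and IRF8, a factor of myeloid cells, stood at 5.07 CPM there against 0.807 in dog. IFNGR1, the other receptor chain, stood above armadillo by 3.07-fold (95% interval 2.71 to 3.48) in dog, and the kinase gene JAK2 stood at 95.2 CPM in dog and 60.8 in armadillo, both inside the 4-fold limit and named after their values were seen. IFNG itself had 3 reads in armadillo and 0 in platypus.

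The PD-1 ligands split. CD274 had 333 reads or 24.4 CPM (95% interval 21.9 to 27.2) in dog, 182 reads or 13.8 CPM (11.8 to 15.9) in armadillo, and was listed at 0 in platypus. The dog level was the higher by 1.78-fold (95% interval 1.48 to 2.14), or 1.42-fold scaled, so it passed counting error and not the 4-fold limit. PDCD1LG2 had 2 reads or 0.147 CPM (95% interval 0.0178 to 0.530) in dog and 223 reads or 16.9 CPM (14.7 to 19.2) in armadillo, and was listed at 0 in platypus. With 2 reads the ratio of armadillo to dog, 115 (95% interval 31.4 to 955), is loosely bounded. Against platypus at 3 reads, CD274 was at least 18.3-fold higher in dog and 10.3-fold higher in armadillo, and PDCD1LG2 at least 12.6-fold higher in armadillo.

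Among other checkpoint genes 1 of 7 matched was at least 4-fold higher in armadillo and 0 in dog, with a median log2 difference of 0.81 towards armadillo. With a background of 13.3% higher in armadillo, 1 of 7 is near the background. That gene was CD276 (B7-H3), a ligand of the same family, at 82.7 CPM against 5.36, a 15.4-fold difference (95% interval 12.2 to 19.8). The T cell costimulators CD80 and CD86 were low in both species, at 1.36 and 6.28 CPM in armadillo and 0.367 and 3.01 CPM in dog. VTCN1 (B7-H4) stood at 9.08 CPM in armadillo and 4.48 in dog, and the inhibitory receptor gene BTLA had 10 reads in armadillo and was listed at 0 in dog. PDCD1, the receptor PD-1 itself, was listed only in dog, with 20 reads or 1.47 CPM.

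Both ectoenzymes of adenosine formation were high in armadillo. ENTPD1 had 31 reads or 2.28 CPM (95% interval 1.55 to 3.23) in dog, 3262 reads or 247 CPM (238 to 255) in armadillo, and was listed at 0 in platypus. Armadillo exceeded dog by 108-fold (95% interval 76.3 to 160), or 136-fold scaled, and platypus by at least 185-fold. NT5E had 187 reads or 13.7 CPM (95% interval 11.8 to 15.8) in dog, 2659 reads or 201 CPM (194 to 209) in armadillo and 60 reads or 26.7 CPM (20.4 to 34.4) in platypus, so the order was armadillo, platypus, dog with no overlap of the intervals. NT5E was 14.7-fold (95% interval 12.6 to 17.1) higher in armadillo than in dog (18.3-fold scaled) and 7.52-fold (95% interval 5.82 to 9.88) higher than in platypus (6.25-fold scaled and 4.42-fold with upper-quartile scaling). Platypus stood above dog by 1.95-fold (95% interval 1.43 to 2.62), or 2.93-fold scaled and 3.93-fold with upper-quartile scaling.

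The rest of the ATP and adenosine route did not share this direction. Of 7 matched genes 1 was at least 4-fold higher in armadillo and 3 in dog, with a median log2 difference of -1.21, towards dog. The backgrounds were 13.3% and 12.6%, so that 1 of 7 is near the background. ENTPD3, a relative of ENTPD1 with the same kind of activity, had 905 reads or 66.4 CPM in dog, 4 reads or 0.303 CPM in armadillo and 77 reads or 34.3 CPM in platypus, the reverse of ENTPD1. The intracellular enzymes ADK, which phosphorylates adenosine, and PNP, which splits inosine, were 8.78-fold (95% interval 7.21 to 10.8) and 11.8-fold (95% interval 11.1 to 12.6) higher in dog. ENPP1, which cuts ATP to AMP and pyrophosphate, was 6.13-fold (95% interval 4.97 to 7.63) higher in armadillo. ADA, which removes adenosine, stood at 69.9 CPM in armadillo and was listed at 0 in platypus. Of the adenosine receptors, ADORA2A stood at 24.5 CPM (55 reads) in platypus and 2.04 in armadillo, and ADORA2B at 4.01 CPM (9 reads) and 11.6, with neither listed in dog.

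**Figure D2:**
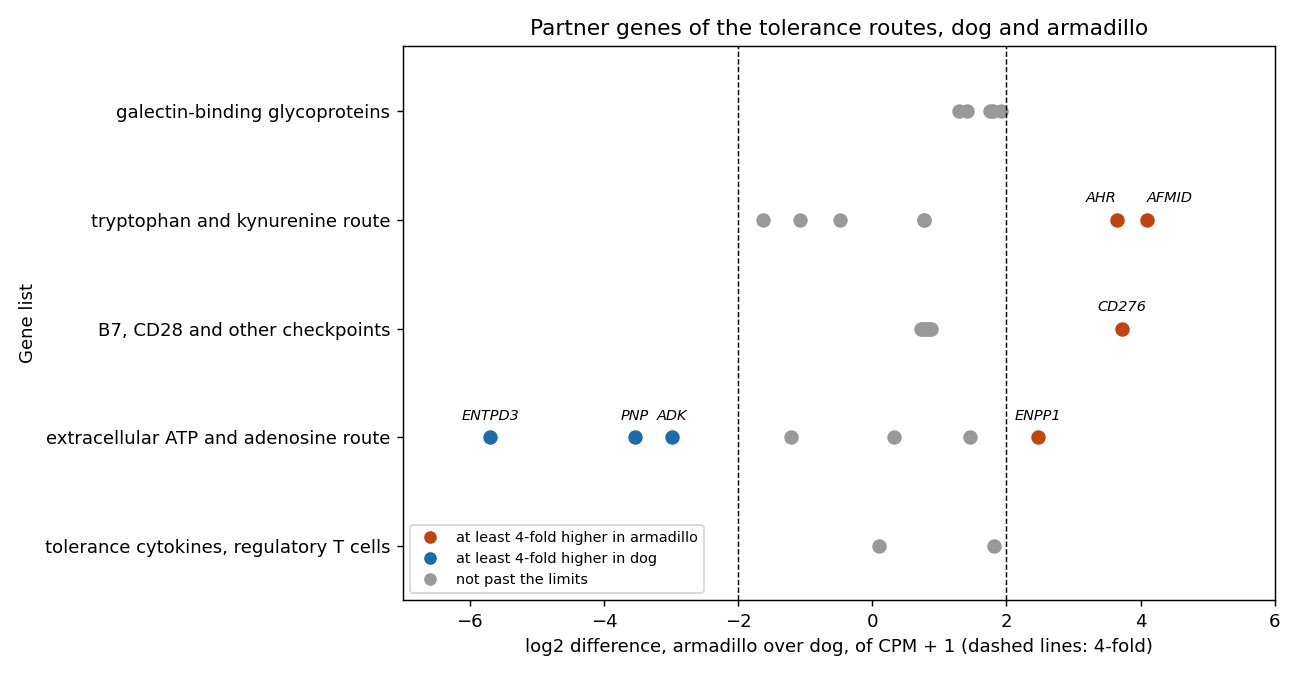
Log2 difference of CPM + 1, armadillo over dog (x axis), of each matched gene of 5 lists (y axis), 1 point per gene, coloured where the gene passed the 4-fold limit and 5 CPM, with dashed lines at 4-fold. The adenosine route holds 3 genes called higher in dog (ENTPD3, PNP and ADK) and 1 in armadillo, while the tryptophan route holds AFMID and AHR on the armadillo side.

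A last list, of tolerance cytokines, their receptors and regulatory T cell genes, had 2 matched genes and 0 past the limit, or 1 with median-of-ratios or upper-quartile scaling. TGFBR1, a receptor of transforming growth factor beta, stood at 21.5 CPM in dog, against 77.8 in armadillo and 47.2 in platypus. FOXP3, the factor of regulatory T cells, had 2 dog reads, 3 armadillo reads and 0 in platypus, too few to compare.

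**Figure D3:**
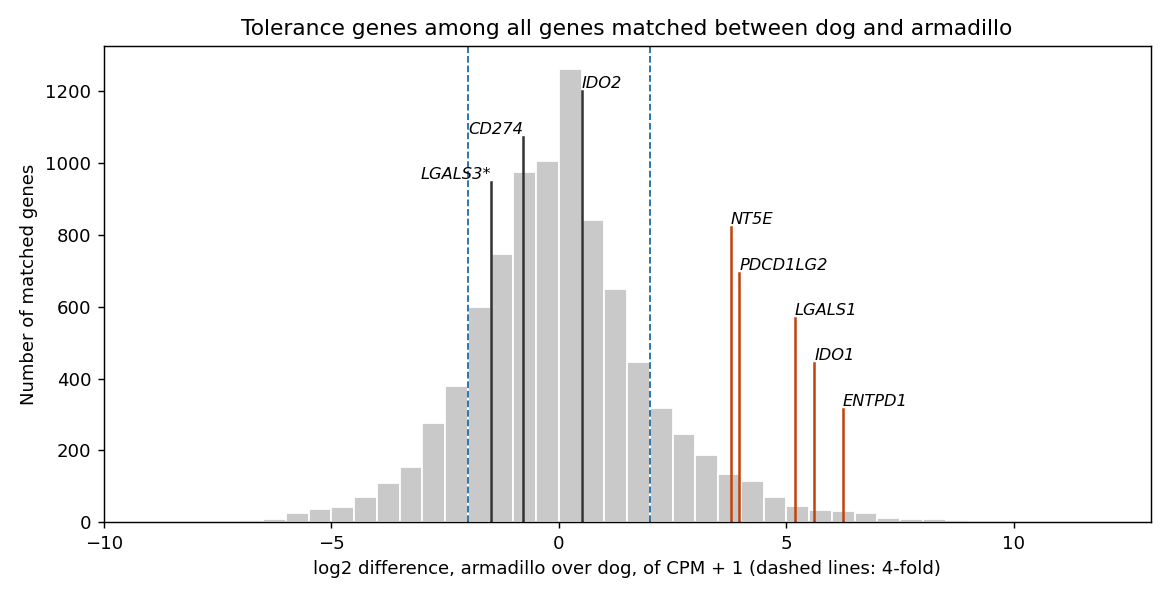
Number of matched genes (y axis, grey bars, 8908 genes) by log2 difference of CPM + 1, armadillo over dog (x axis, bins of 0.5), with lines of arbitrary height at the tolerance genes, red where called; the starred LGALS3 is the dog entry name. NT5E, PDCD1LG2, LGALS1, IDO1 and ENTPD1 lie in the right tail, and IDO2, CD274 and LGALS3 between the dashed 4-fold lines.

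The ratio of 2 partner genes within a library does not depend on how the libraries are scaled, though it still contains the lengths of the gene models. In all 4 pairs of partners this ratio differed between dog and armadillo beyond counting error. LGALS1 had 4.10 reads for each LGALS3 read in armadillo, whereas dog had 25.7 reads of the LGALS3 entry for each LGALS1 read, a 105-fold shift (95% interval 95.2 to 117). IDO1 had 28.8 reads for each IDO2 read in armadillo and 0.440 in dog, a 65.5-fold shift (95% interval 28.4 to 156), which is the amount by which the IDO1 difference exceeded that of IDO2.

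CD274 had 166.5 reads for each PDCD1LG2 read in dog and 0.816 in armadillo, a 204-fold shift (95% interval 54.4 to 1706) that rests on the 2 dog reads of PDCD1LG2. NT5E had 6.03 reads for each ENTPD1 read in dog and 0.815 in armadillo, a 7.40-fold shift (95% interval 5.02 to 11.2). Within each of the 4 pairs, the partner with more reads in dog was the one with fewer reads in armadillo. This is an order of reads, and the order per length is not known for armadillo. The armadillo ratios of 0.816 and 0.815 lie near equal reads, and IDO1 and IDO2 had only 11 and 25 reads in dog. How often other gene pairs change order was not computed. In the dog RefSeq gene table (assembly UU_Cfam_GSD_1.0) IDO1 and IDO2 are neighbours with 0 protein-coding genes between them, as are CD274 and PDCD1LG2, and neither pair overlaps.

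**Figure D4:**
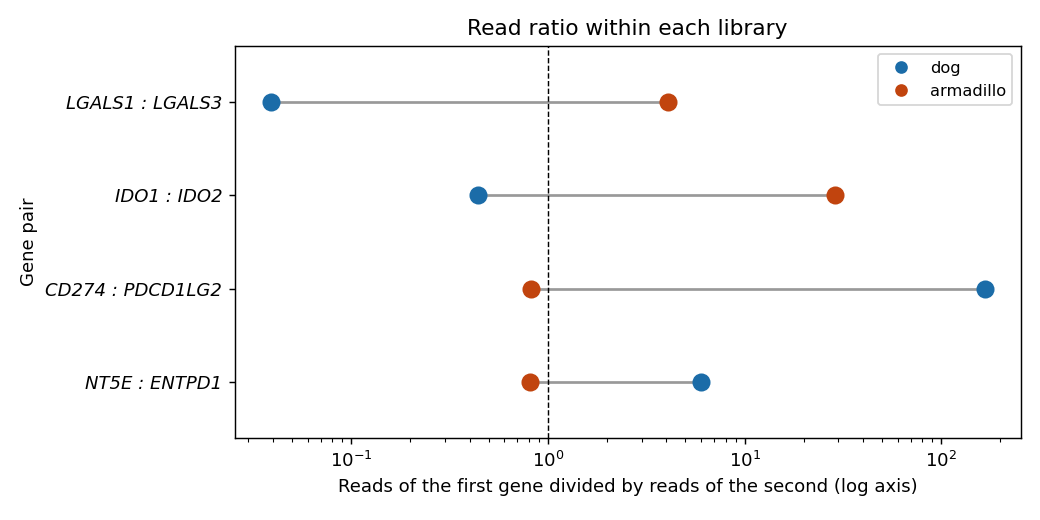
Reads of the first gene divided by reads of the second (x axis, log scale) for 4 pairs of partner genes (y axis) in the dog and armadillo libraries, with a dashed line at equal reads; the dog LGALS3 value is that of its entry name. The points of each pair lie on opposite sides of the line, from 0.0389 in dog to 4.10 in armadillo for the galectins and from 166.5 to 0.816 for the PD-1 ligands.

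Levels of different genes can be compared only per length, which the dog table alone allows through its deposited relative abundance. On that scale the dog order was LGALS3 (597, entry name), LGALS1 (39.1), CD274 (16.3), NT5E (5.13), ENTPD1 (0.898), IDO2 (0.659), IDO1 (0.334) and PDCD1LG2 (0.111). Galectin-3 stood above 99.7% of the listed dog genes and was 15.3 times (95% interval 13.9 to 16.8) the next member, LGALS1, which stood above 87.0%. CD274 stood above 72.7% and NT5E above 55.4% of them, and the other 4 below the middle of the table. Among the last 4, genes next to each other in this order were not separated beyond counting error. ENTPD1 was 1.36 times IDO2 (95% interval 0.778 to 2.41), IDO2 1.97 times IDO1 (0.935 to 4.43) and IDO1 3.01 times PDCD1LG2 (0.658 to 28.0). NT5E stood 5.71 times above ENTPD1 (95% interval 3.89 to 8.64).

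Detection also differed between the libraries. At 2 CPM or more stood 4 of 7 listed members in dog (LGALS1, CD274, NT5E and ENTPD1), 8 of 8 in armadillo and 2 of 7 in platypus (LGALS1 and NT5E), where 58.3%, 81.5% and 45.9% of all listed genes reached that level. The armadillo table lists no gene without reads, which raises its share. Low dog values also occurred among other genes: 3.46% of the matched genes at 50 CPM or more in armadillo were under 1 CPM in dog, as IDO1 was, and 2.56% of those at 10 CPM or more had 3 reads or fewer, as PDCD1LG2 did. The ratio of CPM reached 100 in 1.74% of genes with reads in both, and in 3 of the 7 members (IDO1, PDCD1LG2 and ENTPD1). Among dog genes with very few reads was also PPIA, a cyclophilin that every cell uses, with 1 read.

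Against platypus, armadillo was higher in 6 of 7 members and lower in 0, where 36.1% of 7296 matched genes were called higher in armadillo and 11.0% higher in platypus. Of these 6, LGALS3, CD274, PDCD1LG2 and ENTPD1 were listed at 0 in platypus, and LGALS1 and NT5E were detected in both. Of all matched genes at 10 CPM or more in armadillo 19.2% were listed at 0 in platypus, and of those at 200 CPM or more 16.6%, so a listing at 0 also occurs for abundant genes. Dog was higher than platypus in 1 of 6 members, CD274, and lower in 0, against a background of 32.0% called higher in dog and 9.91% called higher in platypus. The share of 16.7% does not exceed that background. The comparisons share libraries, so their values are not independent.

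Between dog and armadillo, leukocyte, vessel, stromal and smooth muscle markers moved with the armadillo values. The 6 matched leukocyte markers summed to 18.3 CPM in dog and 252 in armadillo, and 0 of them were at 0 in dog. CSF1R, the macrophage growth factor receptor, was 12.8-fold higher in armadillo, CD68, a macrophage lysosomal protein, 57.8-fold and PTPRC 3.99-fold. The 2 matched endothelial markers summed to 77.1 CPM in dog and 7713 in armadillo, the 3 stromal ones to 632 and 8718, and the 2 smooth muscle ones to 23.3 and 21802. In platypus 5 of 6 listed endothelial markers were at 0, and the 3 listed leukocyte markers summed to 0.891 CPM with CD4 at 0. The stromal and smooth muscle markers were high in platypus: 8 of 8 listed stromal markers stood at 2 CPM or more (summed 8567 CPM), and 0 of 6 listed smooth muscle markers were at 0 (summed 16582 CPM). The matrix gene DCN stood at 5099 CPM in platypus and 1668 in armadillo, and LUM at 1250 and 333. Of 4 matched trophoblast markers 1 was called higher in armadillo and 1 higher in dog, beside backgrounds of 13.3% and 12.6%. These were TFAP2C, at 45.2 CPM in armadillo and 2.13 in dog, and PGF, at 4.01 and 21.0 CPM. HAND1 (100 armadillo and 21 dog reads) and ELF5 (23 and 1) lay towards armadillo without a call. The median log2 difference of the trophoblast markers was 1.55 towards armadillo. The part of these cell types in the differences of IDO1, PDCD1LG2, ENTPD1, NT5E and LGALS1 was not tested.

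Genes with the most similar profile are given for LGALS1, NT5E, ENTPD1 and CD274, which had a row in all 3 tables and 10 or more reads in at least 2 libraries, by Euclidean distance of log2(CPM + 1) over 3 libraries and 6386 genes. LGALS1 was nearest to PXDN, a peroxidase of the basement membrane (distance 0.47), and then to the matricellular gene CYR61 (0.94) and the lysosomal protease gene LGMN (0.94). NT5E was nearest to ST5 (0.34), GNB5 (0.47) and CAMK2G (0.54). ENTPD1 was nearest to C7ORF58 (0.023), TPM3 (0.17) and the prostaglandin synthase gene PTGS1 (0.59). CD274 was nearest to MARVELD2, a protein of tricellular junctions (0.064), TBCCD1 (0.070) and ABLIM3 (0.086). The genes named beside ENTPD1 and CD274 were, like these, listed at 0 in platypus. With 3 libraries such distances describe levels only.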

How the data were processed

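Pregnant endometrium of dog, armadillo and platypus gave 1 messenger RNA library each. Column-purified, DNase-treated RNA was made into Illumina libraries, per the labels' protocols. Per the submitters' processing notes Bowtie was used, with version, genome builds and annotation not given in the sources used here. Armadillo and platypus values are raw read counts per gene, as deposited by the authors. For dog the authors deposited estimated counts (mapped bases divided by 34, 516 of them not whole), which were rounded here, and 2 further scores, mapped bases and a relative abundance of unstated unit. Reads divided by relative abundance gave whole gene lengths within 0.1 bases for 100% of 5644 dog genes above 500 reads, with a constant fitted to make them whole, so that column was read as scaled by length. Lines of totals were left out.

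Genes were matched by upper-case symbol where a table held it once. RefSeq accessions named 1347 dog genes, and 82 of these received a symbol from RefSeq (UU_Cfam_GSD_1.0). CPM used the table totals. Levels have exact Poisson intervals and ratios exact intervals conditional on both counts. Ratios between partner genes have exact conditional odds ratio intervals. The libraries carried no molecular identifiers as far as stated, so reads may include copies of 1 molecule and intervals may be too narrow. The calling function was tested on simulated data. Python 3.11.15, scipy 1.17.1 and edgeR 4.0.16 (TMM factors only) were used.

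The members and lists were chosen with earlier results of these data known. All members are named. From each other list up to 4 genes with the largest log2 difference between dog and armadillo are named, with fixed partners (such as TDO2, KMO and PDCD1), and the 3 nearest genes of eligible members. A few genes that these rules reach are not reported here, and the results that need them were left out. Alternatives were 4 other scalings, pseudocount, limits, zeros and entry names.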

Additional observations from a re-analysis of the deposited data

How the results depend on the processing

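None of 132 alternative values of the 22 member folds (scalings, pseudocount 0.1 CPM, zeros set to 3 reads) changed a call, which needs both 4-fold and 5 CPM. The fold alone did change for genes under 5 CPM. IDO2, armadillo over platypus, had log2 2.01 on table totals and 1.88 with upper-quartile scaling. Dog over platypus, IDO2 reached 4.27 and ENTPD1 4.57 with the pseudocount of 0.1 CPM. Without the 5 CPM minimum, 7 members in place of 6 were higher in armadillo than in platypus. The sign turned once: the log2 fold of PDCD1LG2, dog over platypus, became -1.03 with the platypus 0 set to 3 reads, where dog itself has 2 reads. Requiring 2 CPM in both libraries removes genes that are low in 1 of them. It left LGALS1, CD274, NT5E and ENTPD1 for dog against armadillo, with 3 higher in armadillo and CD274 not called. For the comparisons with platypus it left only LGALS1 and NT5E, with 2 higher in armadillo and 0 higher in dog. The share of all matched genes called under this rule was not computed. Adding the LGALS3 entry name gave 2 members higher in dog than in platypus. Between dog and armadillo it left 5 members higher in armadillo and 0 higher in dog. Galectin-binding genes higher in armadillo numbered 2 with median-of-ratios scaling, 1 with TMM, 1 with upper-quartile scaling and 4 at a 2-fold limit, in place of 0. Tolerance cytokine genes higher in armadillo numbered 1 with median-of-ratios scaling, upper-quartile scaling or a 2-fold limit, in place of 0. At a 2-fold limit 2 tryptophan route genes were higher in dog and 2 adenosine route genes in armadillo. No paired analysis was possible because each species has 1 library, and no replicate could be left out. Depth limits platypus most, where 3 reads equal 1.34 CPM, a level inside the dog interval of IDO2 (1.19 to 2.71 CPM).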
